A study of Mus musculus with 3 samples.

Results

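The genes described here are the 5 subunits of the transcription factor NF-kB (*Nfkb1*, *Nfkb2*, *Rel*, *Rela* and *Relb*) and 5 genes that NF-kB is known to switch on and that feed back on it (*Nfkbia*, *Nfkbiz*, *Tnfaip3*, *Bcl3* and *Birc3*). They were chosen by name, with earlier results of these data known, and every array probe whose RefSeq accession belongs to one of these symbols was taken. All 10 genes were on the array, read by 14 of 32994 named probes, out of 22911 named genes in all.

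Microarrays compared mRNA between Colon26, a colon adenocarcinoma line of the mouse, and its sublines LuM1, which is highly metastatic, and NM11, which metastasizes little. All 3 lines come from female BALB/c mice and carry no treatment. Total RNA of each line, grown for 3 days in serum-containing medium, was hybridized in a single colour to 1 array. The 3 arrays shared 1 slide and 1 scan. With no replicates, no difference could be tested, and the line cannot be told apart from its culture. The errors printed come from the scanner's own estimate for a spot, about 10% of a bright signal, and cover technical error only.

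Signals were scaled so that the 75th percentile of every array was 585.1. A probe that the scanner software did not call well above background has only a bound on that array. Its ratio was then taken against the dimmest probe that passed this call (26.4 for Colon26, 20.1 for LuM1 and 19.6 for NM11) or against its own signal where that was higher, and is written as "at least" or "at most". Where a gene had several probes, the one with the highest mean log2 signal represents it. Probes differ in brightness for the same amount of RNA, so levels are compared between lines and not between genes.

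NF-kB is a family of dimers. In resting cells the dimers are held in the cytoplasm by inhibitor proteins called IkB, and a kinase complex, IKK, marks the inhibitor for destruction after signals such as tumour necrosis factor, interleukin 1 or bacterial products. The freed dimers bind DNA at kB sites and raise the transcription of inflammatory genes, survival genes and their own inhibitors. In a second, slower branch the precursor made from *Nfkb2* is processed so that it can act together with RelB. In colon tumours the pathway is known as a link between inflammation and growth.

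Of 8 epithelial markers, *Cdh1*, *Krt18*, *Krt19* and *Vil1* were well above background on no array, and *Epcam* only in LuM1 cells, where its signal was 28.0. *Krt20*, *Cdx2* and *Krt8* were well above background on all 3 arrays. *Krt20* (651, 54.5 and 157) and *Cdx2* (443, 232 and 167) were highest in Colon26 cells, and *Krt8* (28.9, 108 and 37.1) in LuM1 cells. The list summed to a signal of 1154 in Colon26, 441 in LuM1 and 387 in NM11 cells. Of 7 myeloid markers the defining *Ptprc* and *Adgre1* were well above background on no array, while the list summed to 7055 in Colon26, 17059 in LuM1 and 6237 in NM11 cells, and *Cd14*, *Cd68* and *Lyz2* exceeded both other lines by at least 2-fold in LuM1 cells. *Csf1r* (682, 691 and 675 in Colon26, LuM1 and NM11 cells) and *Itgam* (5027, 6818 and 4251) lay within 2-fold. Of 6 lymphoid markers 3 were well above background in Colon26 cells, 3 in LuM1 and 2 in NM11 cells, and the list summed to 1691, 1601 and 1658. Of 4 endothelial markers only *Pecam1* was well above background on any array, and the list summed to 68.5, 66.0 and 93.9. Of 6 fibroblast markers *Dcn* and *Pdgfra* were lowest in Colon26 and highest in LuM1 cells (scaled signals of 6.07, not well above background, 27503 and 9599 for *Dcn*, and 218, 3965 and 1286 for *Pdgfra*, in Colon26, LuM1 and NM11 cells), whereas *Col1a2* was lowest in LuM1 cells (59896, 49.6 and 85275) and the list summed to 66038, 34735 and 103157. *Col1a1* was also lowest in LuM1 cells (4918, 2247 and 6045), *Pdgfrb* lay within 2-fold (993, 966 and 947), and *Lum* was well above background on no array. The part that any of these cell types plays in the results was not tested. More cells of a type and more RNA per cell cannot be told apart in RNA of whole cultures.

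Both sublines had far more mRNA of most feedback targets than Colon26 cells, and of *Relb* among the subunits. In LuM1 cells 5 of the 10 members were at least 2-fold higher than in Colon26 cells and 0 were at least 2-fold lower, where over all 14182 genes with a ratio 13.1% were higher and 11.8% lower. In NM11 cells 5 members were at least 2-fold higher than in Colon26 cells and 0 lower, against 8.34% higher and 7.89% lower of 13832 genes. These 5 were *Relb*, *Nfkbia*, *Nfkbiz*, *Bcl3* and *Birc3* in each comparison. The comparisons share the Colon26 array, so a fault on that array would move both. Between the sublines the members lay within 2-fold, with 0 at least 2-fold higher and 0 lower in LuM1 than in NM11 cells, against 11.1% and 8.5% of 14411 genes. The count of 0 higher members depends on the scaling and was 2 or 3 under others. All 10 members were well above background in LuM1 and in NM11 cells, and 7 were in Colon26 cells, where *Rel*, *Bcl3* and *Birc3* were not. Of all probes, 53.8% were well above background in LuM1, 52.5% in NM11 and 49.9% in Colon26 cells.

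**Figure D1:**
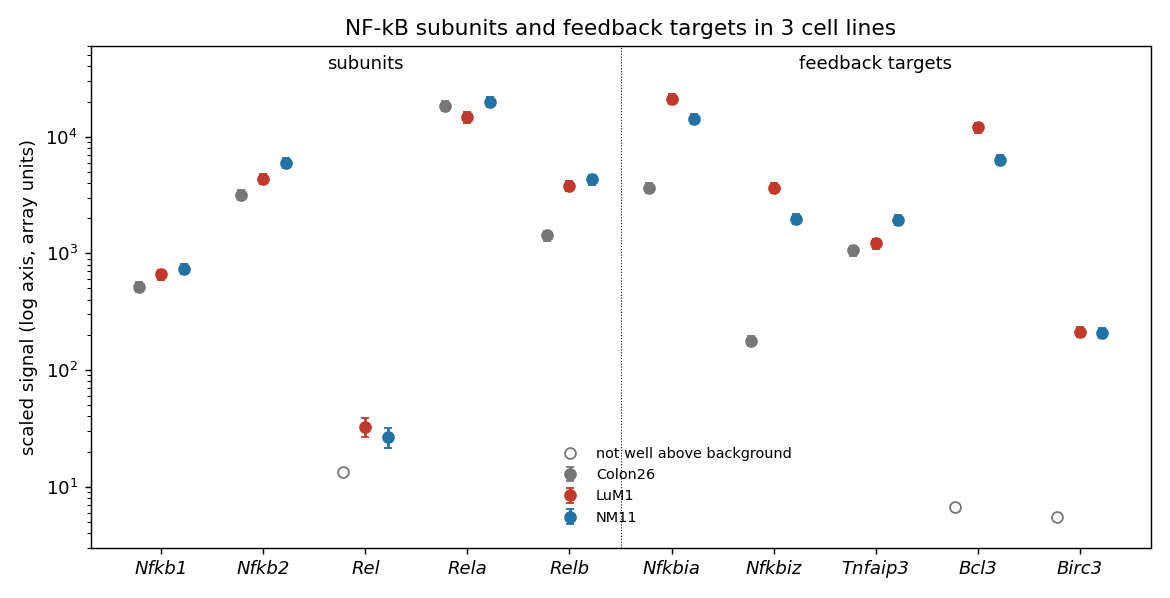
Scaled signal of each member (representative probe, log axis, array units) in Colon26 (grey), LuM1 (red) and NM11 cells (blue), with the scanner error as bars, and open circles, drawn without error, for signals not well above background. *Relb*, *Nfkbia*, *Nfkbiz*, *Bcl3* and *Birc3* sit at least 2-fold lower in Colon26 cells than in the sublines, whereas the signals of *Rela* lie between 14702 and 19973 in the 3 lines.

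Among the subunits, *Relb* differed most. RelB is the partner of the processed *Nfkb2* product and its gene is itself a target of NF-kB. Its scaled signal was 1427 ± 143 in Colon26, 3770.3 ± 377 in LuM1 and 4304 ± 430.4 in NM11 cells. Colon26 cells were thus the low line, and the sublines lay close together. The ratio over Colon26 was 2.64-fold in LuM1 (log2 1.40, scanner error 0.20) and 3.02-fold in NM11 cells (log2 1.59, error 0.20). LuM1 over NM11 was 0.876-fold (log2 -0.19), within the scanner error of 0.20.

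The second *Relb* probe (A_55_P2744644), assigned to another transcript record of the gene, gave 335 ± 34.1, 943 ± 94.4 and 1121 ± 112 in Colon26, LuM1 and NM11 cells. Its ratios over Colon26 were 2.81-fold and 3.34-fold for LuM1 and NM11 cells, within 0.15 of the first probe on the log2 scale in each comparison.

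*Nfkb2*, which encodes the precursor of the slower branch, was lowest in Colon26 and highest in NM11 cells, with signals in Colon26, LuM1 and NM11 cells of 3182 ± 318, 4379 ± 438 and 5978 ± 598. Each step exceeded the scanner error of 0.20, but no ratio reached 2-fold. The log2 ratio over Colon26 was 0.46 in LuM1 and 0.91 in NM11 cells, and LuM1 over NM11 was -0.45, a difference that turned positive (0.14) when scaled to *Hprt*. The dimmer probe of the gene gave 2255 ± 226, 3169 ± 317 and 4109 ± 411 in the same order, with log2 ratios within 0.075 of the brighter one.

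*Nfkb1* encodes the precursor of the DNA-binding partner of RelA in the classical dimer. Its signal was 515 ± 51.8 in Colon26, 659.8 ± 66.1 in LuM1 and 738 ± 73.9 in NM11 cells. Both sublines exceeded Colon26 cells by more than the scanner error, with log2 ratios of 0.36 and 0.52 (error 0.20 each), while LuM1 and NM11 cells differed by -0.16, within it. When scaled to *Hprt*, the ratio of NM11 over Colon26 shrank to a log2 of 0.03.

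*Rela*, the main activating subunit, had similar levels in the 3 lines. The signals were 18291 ± 1829 in Colon26, 14702 ± 1470.2 in LuM1 and 19973 ± 1997 in NM11 cells. LuM1 cells were the low line, with a log2 ratio of -0.32 over Colon26 and -0.44 over NM11 cells (error 0.20 each), whereas NM11 and Colon26 cells differed by 0.13, within the error. The first of these turned positive (0.13) in the authors' processed values, the second (0.15) when scaled to *Hprt*. The dimmer *Rela* probe had signals of 162 ± 17.1, 143 ± 14.9 and 181 ± 18.6, and its log2 ratio of LuM1 over Colon26 was -0.18, within the scanner error of 0.21.

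*Rel*, a subunit best known from lymphoid cells, was near the detection limit. Its signal was 13.3 ± 6.30 in Colon26 cells, not well above background, 32.6 ± 5.92 in LuM1 and 26.5 ± 5.19 in NM11 cells. LuM1 cells were at least 1.24-fold above Colon26 cells, for NM11 cells the bound gave no difference (log2 0.0023), and LuM1 and NM11 cells differed by 0.30 on the log2 scale, within the scanner error of 0.39. When signals significantly above background were accepted, LuM1 over Colon26 became 2.45-fold and NM11 over Colon26 1.99-fold.

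**Figure D2:**
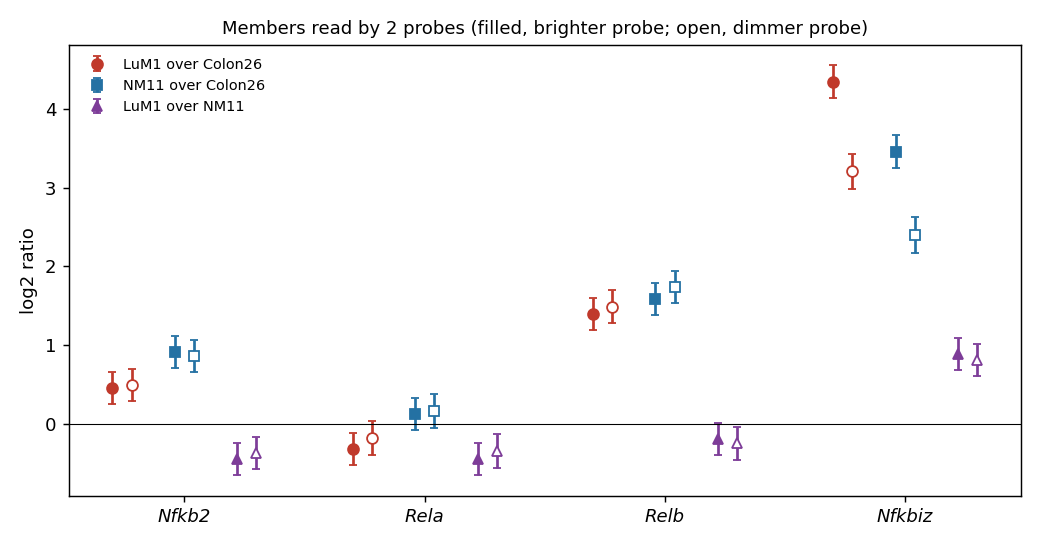
Log2 ratio with scanner error in each of the 3 comparisons for the members read by 2 probes (filled, brighter probe; open, dimmer probe). The probes of *Nfkb2*, *Rela* and *Relb* lie within 0.15 of each other, and those of *Nfkbiz* differ by 1.14 for LuM1 over Colon26 but have the same direction.

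The feedback targets covered a wide range. *Bcl3*, a nuclear IkB protein that joins dimers on DNA and can act as a coactivator, had the largest difference of all members. Its signal was 6.73 ± 5.45 in Colon26 cells, not well above background, 12008 ± 1201 in LuM1 and 6346 ± 635 in NM11 cells. The level was at least 455-fold higher in LuM1 (log2 bound 8.83) and at least 240-fold higher in NM11 cells (log2 bound 7.91) than in Colon26 cells, or at least 153-fold and 80.9-fold after normexp correction. This background correction added 50 to every signal before scaling, which by itself shrinks ratios to dim signals. Only 15 of 14182 genes had a ratio or bound at least as high for LuM1 over Colon26, *Bcl3* included, and 10 of 13832 for NM11 over Colon26. The gene was read by 1 spot, and LuM1 cells had 1.89-fold the level of NM11 cells (log2 0.92, error 0.20).

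*Nfkbiz* encodes another nuclear IkB protein, one needed for the induction of genes such as *Il6* and *Lcn2*. The brighter probe read 179 ± 18.7 in Colon26, 3651 ± 365 in LuM1 and 1967 ± 197 in NM11 cells, so the 3 lines were separated from each other. LuM1 cells were 20.4-fold above Colon26 cells (log2 4.35, error 0.21), and the log2 ratio of NM11 over Colon26 cells was 3.46 (error 0.21). The dimmer probe (A_55_P2039086) read 89.5 ± 10.8, 827 ± 82.9 and 472 ± 47.4, and gave log2 ratios of 3.21 (9.24-fold) and 2.40 (5.27-fold). The probes thus had one direction and order but differed in size, by 1.14 on the log2 scale for LuM1 over Colon26. For LuM1 over NM11 they gave 0.89 and 0.81.

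*Nfkbia* encodes IkB alpha, the inhibitor that is destroyed on activation and made again under NF-kB control. Its signal was 3659.6 ± 366 in Colon26, 21096 ± 2109.6 in LuM1 and 14189 ± 1419 in NM11 cells. LuM1 cells were highest and Colon26 cells lowest, and each gap exceeded the scanner error of 0.20. The ratio over Colon26 was 5.76-fold in LuM1 (log2 2.53) and 3.88-fold in NM11 cells (log2 1.95), and LuM1 over NM11 was 1.49-fold (log2 0.57).

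*Birc3* encodes a ubiquitin ligase of the inhibitor of apoptosis family that acts at tumour necrosis factor receptors. It read 5.45 ± 5.47 in Colon26 cells, where the spot was not significantly above background and the value is no larger than its error, 212 ± 21.6 in LuM1 and 208 ± 21.2 in NM11 cells. The sublines did not differ beyond the scanner error (log2 0.03, error 0.21). Against Colon26 cells the level was at least 8.02-fold higher in LuM1 and at least 7.86-fold higher in NM11 cells, or at least 3.39-fold and 3.77-fold after normexp correction.

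*Tnfaip3*, which encodes a ubiquitin-editing enzyme that ends the signal from receptors to IKK, did not follow the other feedback targets. It read 1059.8 ± 106 in Colon26, 1218 ± 122 in LuM1 and 1933 ± 193 in NM11 cells. NM11 cells were the high line, with a log2 ratio of 0.87 over Colon26 (error 0.20), and LuM1 over NM11 was -0.67 (error 0.20). LuM1 and Colon26 cells differed by 0.20, within the scanner error of 0.20. When scaled to *Hprt*, the ratios became 0.38 for NM11 over Colon26 and -0.08 for LuM1 over NM11.

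**Figure D3:**
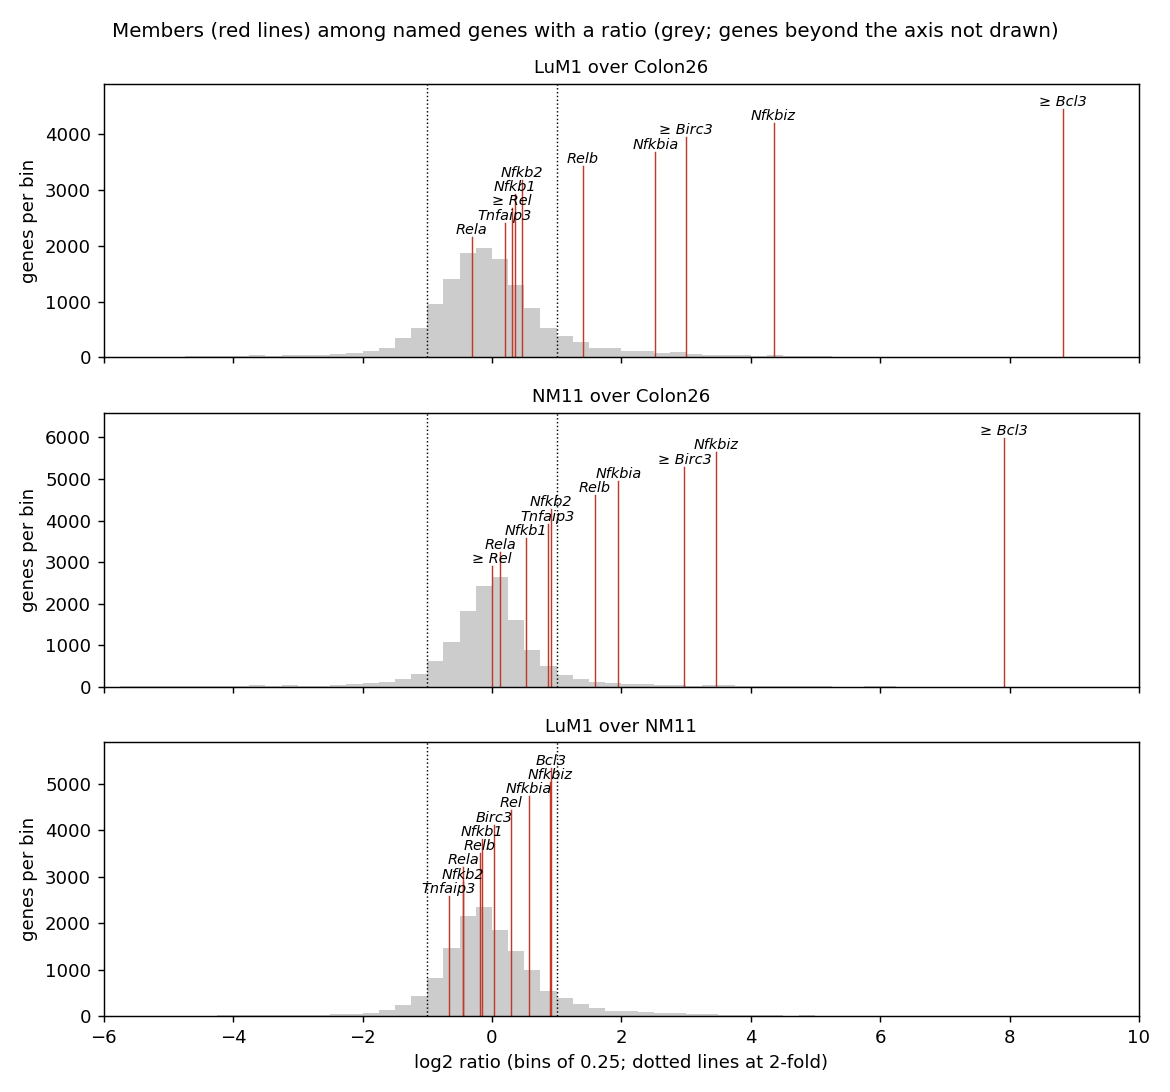
Number of named genes per 0.25-wide bin of log2 ratio (grey) in the 3 comparisons, with the members as red lines, bounds marked with the sign for at least, and 2-fold marked by dotted lines. *Bcl3* lies at a bound of 8.83 for LuM1 over Colon26 and 7.91 for NM11 over Colon26, and in LuM1 over NM11 the members lie between -0.67 and 0.92.

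The median log2 ratio of the 5 feedback targets, with bounds at their value, was 3.00 for LuM1 over Colon26 and 2.98 for NM11 over Colon26, and that of the 5 subunits was 0.36 and 0.52. Over all genes with a ratio the median was -0.10 and -0.01. For LuM1 over NM11 it was 0.57 for the feedback targets, -0.19 for the subunits and -0.09 for all genes. *Nfkbia*, *Nfkbiz* and *Bcl3* were higher in LuM1 than in NM11 cells beyond the scanner error, *Nfkb2*, *Rela* and *Tnfaip3* were lower, and 4 members lay within it.

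The promoters of some members are shown because NF-kB acts on these genes through kB sites, which are recognized by their letters. RefSeq promoter sequences (assembly GRCm38.p6) were at hand for 7 of the 10 members, and the 250 bases before each transcription start were searched on both strands for the kB consensus of 10 bases. It was found in at least 1 window of *Nfkb2*, *Rel*, *Nfkbia* and *Tnfaip3*, which is 4 of 7 members, against 8.23% of 27025 genes with such windows. *Rela*, *Bcl3* and *Birc3* had no match there. A match is a run of letters and not a site known to be bound, and the absence of one says only that these letters are not in this window. Capitals mark the matches, and sequences run 5′ to 3′ towards the start. *Nfkbia*, *Tnfaip3* and *Nfkb2* are given as members with matches close to the start but unequal differences between lines, and *Bcl3* as the member with the largest difference.
Nfkbia (chr12:55492648-55492897, minus strand): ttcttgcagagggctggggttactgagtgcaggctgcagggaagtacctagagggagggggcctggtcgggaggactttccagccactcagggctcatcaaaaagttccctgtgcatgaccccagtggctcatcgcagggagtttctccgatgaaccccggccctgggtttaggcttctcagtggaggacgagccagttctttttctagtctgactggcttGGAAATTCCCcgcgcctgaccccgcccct
Tnfaip3, first listed start (chr10:19015411-19015660, minus strand): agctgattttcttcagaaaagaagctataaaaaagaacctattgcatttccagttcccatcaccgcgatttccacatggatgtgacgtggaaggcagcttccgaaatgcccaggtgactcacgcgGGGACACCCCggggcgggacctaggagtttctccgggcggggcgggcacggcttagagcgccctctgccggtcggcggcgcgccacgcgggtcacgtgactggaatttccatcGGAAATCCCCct
Nfkb2, first listed start (chr19:46304487-46304736, plus strand): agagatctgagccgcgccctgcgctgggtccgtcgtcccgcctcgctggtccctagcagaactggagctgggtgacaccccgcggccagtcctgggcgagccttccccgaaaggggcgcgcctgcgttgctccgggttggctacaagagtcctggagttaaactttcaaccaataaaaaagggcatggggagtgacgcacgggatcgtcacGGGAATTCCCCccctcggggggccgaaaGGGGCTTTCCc
Bcl3 (chr7:19822756-19823005, minus strand): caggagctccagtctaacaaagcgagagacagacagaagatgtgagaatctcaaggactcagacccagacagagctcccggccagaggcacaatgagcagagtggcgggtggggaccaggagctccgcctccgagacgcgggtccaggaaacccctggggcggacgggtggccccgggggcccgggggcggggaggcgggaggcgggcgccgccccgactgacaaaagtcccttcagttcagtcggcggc

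The match in *Nfkbia*, with a ratio of 5.76-fold for LuM1 over Colon26, begins 29 bases before the start. *Tnfaip3*, with 1.15-fold, has a match beginning 125 bases and another beginning 12 bases before its start. *Nfkb2*, with 1.38-fold, has overlapping matches that begin 39 and 38 bases before the start and another at 11 bases. For NM11 over Colon26 the ratios of *Nfkbia*, *Tnfaip3* and *Nfkb2* lay closer together, at 3.88-fold, 1.82-fold and 1.88-fold. The second listed start of *Tnfaip3* had no match, and the other listed starts of *Nfkb2* had matches too.

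The rest of the pathway was described from lists of its genes. The lists were chosen with earlier results of these data known, so they cannot show how far the difference reached beyond the members. Among other IkB proteins, *Nfkbie*, which encodes IkB epsilon, had the pattern of the feedback targets, with signals of 342 ± 34.6 in Colon26, 2125 ± 213 in LuM1 and 2024 ± 202 in NM11 cells. It was 6.21-fold and 5.92-fold higher in LuM1 and NM11 than in Colon26 cells. *Nfkbid*, a further nuclear IkB gene, was 2.38-fold higher in LuM1 and 1.61-fold in NM11 cells. Of the 4 genes of this list 2 were at least 2-fold higher in LuM1 and 1 in NM11 than in Colon26 cells, and 0 were lower. Over all genes with a ratio, 13.1% were higher and 11.8% lower in LuM1 cells, and 8.34% and 7.89% in NM11 cells. *Nfkbib*, the gene of IkB beta, and *Nfkbil1* lay within 2-fold, though *Nfkbil1* was below it in NM11 over Colon26 cells when scaled to *Hprt* (log2 -1.38).

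Among the 5 IKK kinases, *Chuk*, *Ikbkb*, *Ikbkg* and *Tbk1* lay within 2-fold in each comparison, except that, scaled to *Hprt*, *Ikbkg* was at least 2-fold lower in NM11 than in Colon26 cells (log2 -1.32) and *Ikbkb* higher in LuM1 than in NM11 cells (log2 1.09). With that scaling *Ikbke* was also lower in NM11 than in Colon26 cells, for a count of 2 in place of 0. Of all genes with a ratio 20.1% were then lower in NM11 than in Colon26 cells, in place of 7.89%. In LuM1 over NM11 cells 25.3% were then higher, in place of 11.1%. *Ikbke*, an inducible relative of the IKK kinases, had signals of 71.9 ± 9.10 in Colon26, 422 ± 42.5 in LuM1 and 49.5 ± 6.43 in NM11 cells, so LuM1 cells stood apart. It was 5.88-fold higher in LuM1 than in Colon26 and 8.53-fold higher than in NM11 cells, from 1 of its 2 probes, the other being above background on no array.

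Among 19 adaptors and upstream kinases, 2 were at least 2-fold higher and 1 lower in LuM1 than in Colon26 cells, and 3 higher and 1 lower in NM11 cells. For all genes with a ratio the shares were 13.1% and 11.8% in LuM1 cells, and 8.34% and 7.89% in NM11 cells. The count of higher genes in LuM1 cells was thus close to the share over all genes. *Traf1*, an adaptor gene that NF-kB induces, read 234 ± 24.2, 1767 ± 177 and 1668 ± 167 in Colon26, LuM1 and NM11 cells, and was 7.56-fold and 7.13-fold above Colon26 cells in the sublines. *Xiap*, of the same family as *Birc3*, was 2.63-fold higher in LuM1 cells. *Map3k14*, which encodes the kinase that starts the slower branch, was 2.43-fold and *Ripk2* 2.52-fold higher in NM11 cells. The dimmer *Map3k14* probe gave 1.98-fold for NM11 over Colon26, and 0.814-fold for LuM1 over NM11. *Irak1* had 0.448-fold the Colon26 level in LuM1 and 0.453-fold in NM11 cells. Against NM11 cells, *Ripk2*, *Myd88* and *Map3k14* were at least 2-fold lower in LuM1 cells, with 0.375-fold, 0.463-fold and 0.416-fold (brighter probe), and 0 were higher. Over all genes with a ratio 11.1% were higher and 8.5% lower. The balance in this list depends on the scaling, with 4 higher and 0 lower when scaled to *Hprt* and, with the authors' processed values, 2 higher and 1 lower. That of all genes with a ratio moved too, to 25.3% higher and 3.52% lower with *Hprt* and 19.3% and 4.43% with the authors' values. The counts over Colon26 also moved, to 1 higher and 3 lower in NM11 cells when scaled to *Hprt*, where *Map3k14* and *Ripk2* came within 2-fold, and with the authors' values to 4 higher and 0 lower in LuM1 cells, where *Irak1* did. For all genes the shares in these cases were 5.06% higher and 20.1% lower, and 21.2% and 6.09%.

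Among 12 other brakes on the pathway 2 were higher in LuM1 and 2 in NM11 than in Colon26 cells. Over all genes with a ratio the shares were 13.1% and 8.34%, so the count in LuM1 cells was close to the share over all genes. *Tnip1*, whose protein binds the *Tnfaip3* product, read 2955 ± 296, 7411 ± 741 and 6949 ± 695 in Colon26, LuM1 and NM11 cells, 2.51-fold and 2.35-fold above Colon26, with 1.64-fold and 1.33-fold from its dimmer probe. *Zc3h12a*, which encodes an RNase that degrades inflammatory mRNAs, read 10.4 ± 6.86 in Colon26 cells, not well above background, 355 ± 35.9 in LuM1 and 136 ± 14.4 in NM11 cells, at least 13.4-fold and 5.14-fold higher. Its bounds fell as low as a log2 of 2.11 and 1.16 under the 8 alternatives. *Tnip3* alone was lower, at most 0.490-fold and 0.476-fold, just past the threshold. It came within 2-fold in LuM1 cells under 4 of the 8 alternatives (no scaling, *Hprt*, normexp and the authors' values) and in NM11 cells under 2 (quantile and normexp). In NM11 cells *Tnip1* came within 2-fold when scaled to *Hprt* (log2 0.75), and in LuM1 cells 5 brakes were higher in the authors' values. In those values 21.2% of all genes with a ratio were higher in LuM1 than in Colon26 cells. *Cyld*, which encodes the deubiquitinase that restrains IKK, and *Otulin* lay within 2-fold.

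Of the 11 receptors 10 had a ratio. In LuM1 cells 5 were at least 2-fold higher than in Colon26 cells and 1 lower, and in NM11 cells 3 were higher and 0 lower. The shares over all genes with a ratio were 13.1% and 11.8% in LuM1 cells, and 8.34% and 7.89% in NM11 cells. The higher ones in LuM1 cells were *Tlr2* (at least 20.5-fold), *Il1rap* (8.97-fold), *Tnfrsf1b* (3.63-fold), *Il1r1* (3.37-fold) and *Tlr4* (2.98-fold). In NM11 cells *Il1rap* was 17.5-fold, *Tlr2* at least 2.60-fold and *Il1r1* 2.12-fold higher. The *Tlr2* bound fell as low as a log2 of 2.85 in LuM1 and 0.79 in NM11 cells under the 8 alternatives. Scaled to *Hprt*, 1 receptor was higher (*Il1rap*) and 1 lower (*Tnfrsf12a*) in NM11 than in Colon26 cells, and 8 were higher in LuM1 than in Colon26 cells in the authors' processed values. For all genes the shares were 5.06% higher and 20.1% lower with *Hprt*, and 21.2% higher in the authors' values. *Il1rap* and *Il1r1* encode the chains of the interleukin 1 receptor, and the dimmer of the *Il1rap* probes with a ratio gave 3.59-fold and 6.75-fold. *Tnfrsf12a*, the receptor of TWEAK, lay the other way, with signals of 59300.1 in Colon26, 11419.6 in LuM1 and 31346 in NM11 cells, or 0.193-fold in LuM1 over Colon26.

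Of 9 ligands LuM1 cells had 5 well above background, and each of the other lines had 2, *Tnf* and *Tnfsf12*. Over all probes the shares well above background were 53.8% in LuM1, 49.9% in Colon26 and 52.5% in NM11 cells. *Il1a*, *Il1b*, *Lta* and *Cd40lg* were well above background on no array, and *Tnf* read 84.3, 94.9 and 87.6 in Colon26, LuM1 and NM11 cells, within the scanner error, and *Tnfsf12*, the gene of TWEAK, read 179, 269 and 184. *Tnfsf11*, which encodes RANKL, was well above background in LuM1 cells alone (614 ± 61.6), at least 23.3-fold above Colon26 and 31.4-fold above NM11 cells. Its dimmer probe gave a ratio or bound of 6.73-fold and 9.09-fold, and under the 8 alternatives the log2 ratios fell as low as 3.01 and 2.97. *Ltb* (60.5) and *Tnfsf13b* (74.5) were also well above background in LuM1 cells alone, and their bounds fell under 2-fold after normexp correction. That correction adds 50 to every signal, which by itself brings ratios of signals this dim close to 2-fold or below.

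The last list held 24 other target genes, inflammatory and survival genes that NF-kB is known to induce, of which 22 had a ratio in each subline. Of these, 15 were at least 2-fold higher and 3 lower in LuM1 than in Colon26 cells, and 17 higher and 0 lower in NM11 cells. Over all genes with a ratio 13.1% were higher and 11.8% lower in LuM1 cells, and 8.34% and 7.89% in NM11 cells. The median log2 ratio of the list with bounds was 1.86 and 2.44. Scaled to *Hprt*, 13 of the list were higher in NM11 cells, against 5.06% of all genes. With that scaling 2 were lower in LuM1 cells, against 10.0% of all genes. The chemokine genes *Ccl2*, *Cxcl1* and *Cxcl5* had the widest differences together with the acute-phase genes *Saa3* and *Lcn2* and the cytokine gene *Il6*. *Ccl2* read 6.87 ± 5.46 in Colon26, not well above background, 112391 ± 11239 in LuM1 and 90782 ± 9078 in NM11 cells. *Cxcl1* read 45.9 ± 7.47, 102407 ± 10241 and 21436 ± 2144. *Saa3*, *Lcn2* and *Il6* were at least 3099-fold, 490.3-fold and at least 181-fold above Colon26 in LuM1 cells, and at least 113-fold, 50.1-fold and at least 74.6-fold in NM11 cells. These sizes depend on the processing. Under the 8 alternatives the log2 ratios of *Saa3*, *Lcn2* and *Il6* fell as low as 9.73, 8.41 and 5.77 in LuM1 cells, and 4.98, 5.15 and 4.61 in NM11 cells. The dimmer *Il6* probe gave a ratio or bound of 85.5-fold in LuM1 and 36.3-fold in NM11 cells.

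Some targets were lower. The 3 lower in LuM1 than in Colon26 cells were *Gadd45b* (0.165-fold), *Csf1* (0.270-fold) and *Ccl5* (0.477-fold). *Ccl5* came within 2-fold under 4 of the 8 alternatives, with log2 ratios up to -0.62. *Icam1*, which encodes an adhesion molecule and is a common readout of the pathway, was well above background on no array. Between the sublines 8 targets were at least 2-fold higher and 5 lower in LuM1 cells, against 11.1% and 8.5% of all genes with a ratio. The higher ones were *Mmp9* (2311 in LuM1 against 24.7 in NM11 cells, 93.7-fold), *Saa3* (27.5-fold), *Lcn2* (9.80-fold), *Cxcl1*, *Nos2*, *Cxcl5*, *Il6* and *Ier3*. The *Mmp9* signal in NM11 cells (error 4.97) was near the detection limit, and its log2 ratio of 6.55 fell as low as 4.52 under the 8 alternatives. The lower ones were *Ccl20*, well above background in NM11 cells alone (1620.1 ± 162), *Cxcl10* (201 in LuM1 against 3355 in NM11 cells), *Gadd45b*, *Ccl5* and *Csf1*.

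**Figure D4:**
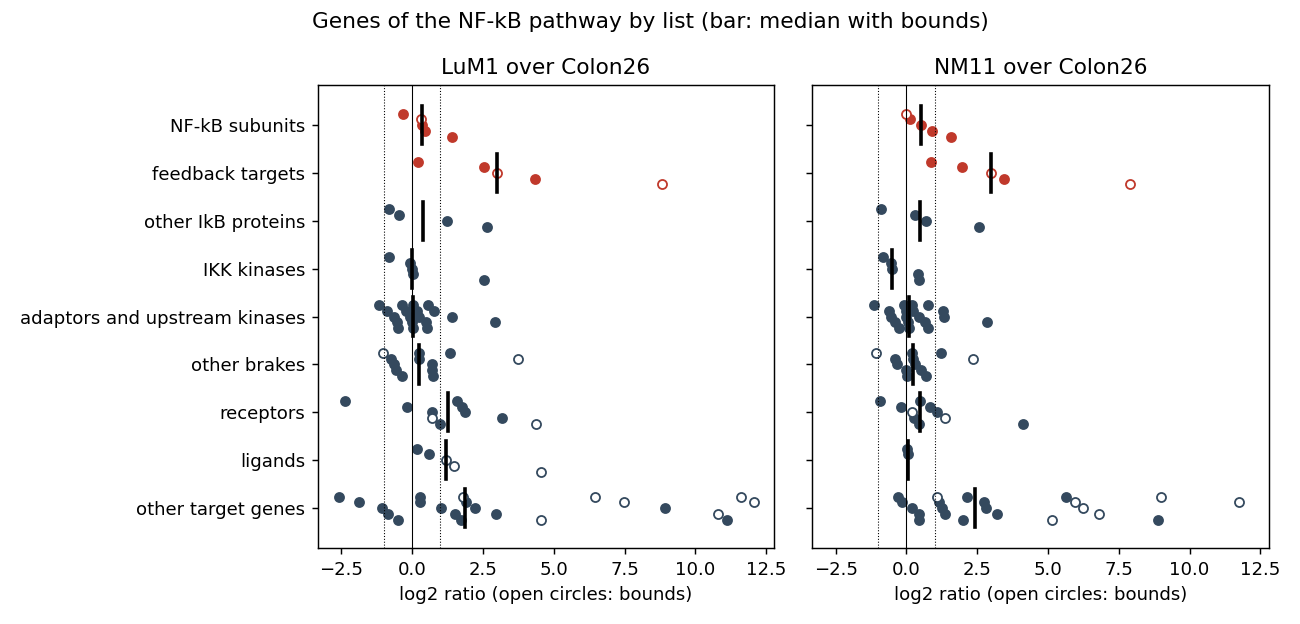
Log2 ratio of each gene of the pathway lists over Colon26 in LuM1 (left) and NM11 cells (right), with bounds as open circles, the median of a list as a black bar and the members in red. The other target genes reach a bound of 12.06 for LuM1 over Colon26, and the IKK kinases lie within 2-fold in NM11 cells.

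The genes whose levels over the 3 arrays lay nearest to *Nfkbiz* and *Nfkbia*, the members of widest range among those well above background on all 3 arrays, were sought among 12249 genes well above background on every array, by the distance between their log2 ratios over Colon26. For *Nfkbiz* they were *Upp1* (distance 0.087), *Gprc5b* (0.24) and *Pcdhb21* (0.28), the last of a family of similar sequences. For *Nfkbia* they were *Cd81* (0.10), *C4b* (0.11), which has a near-identical neighbour gene, and *Gpt* (0.12). The likeness rests on 3 arrays. The scanner error of a ratio was about 0.20, so the order of these genes is not resolved. The 2 probes of *Nfkbiz* lay 1.14 apart for LuM1 and 1.06 apart for NM11 over Colon26, more than any distance listed, so its neighbours depend on the probe.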

How the data were processed

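Probe intensity was measured on 3 single-colour arrays, 1 per cell line. Per the file headers, the authors deposited the intensity of each spot from Agilent Feature Extraction 11.5.1.1, background-subtracted and detrended without scaling between arrays, and other columns that are flags of 0 or 1. The deposited table of processed intensity equals them multiplied by a constant for each array (Colon26 0.654, LuM1 0.829, NM11 0.706). Its scaling is not given in the sources used here.

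Control and outlier spots (137, 74 and 99 on the Colon26, LuM1 and NM11 arrays) were left out, spots of a probe averaged, and arrays scaled to the 75th percentile. Names came from RefSeq accessions of GRCm38.p6. Because the probes were designed on another assembly, only RefSeq promoters carry coordinates. The number of arrays limits the precision. Called means at least 2-fold, the error of a ratio combines both spots' scanner errors, and no probe was saturated. The code was tested on simulated data.

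The members, the lists and the alternatives were chosen with earlier results of these data known. Named were all members, genes of the lists at least 4-fold different in a comparison (at most 6 per list), genes behind small counts, and the 3 genes nearest to each of 2 members. Other genes named for single values (such as *Icam1*, *Mmp9*, *Cyld*, *Otulin*, *Tnf* and single cell type markers) were chosen after their values were seen. Python 3.11.15, pandas 2.3.3 and numpy 2.4.6 were used, with R 4.3.3 and limma 3.58.1 for the normexp correction, which had an offset of 50. No p-value was computed.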

Additional observations from a re-analysis of the deposited data

Results flagged for a closer look

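*Gadd45b* and *Ccl5*, both on the list of other target genes, lay on opposite sides of Colon26 cells in the sublines, each by at least 2-fold in the values of the report. *Gadd45b* had log2 ratios over Colon26 of -2.60 in LuM1 and 1.36 in NM11 cells, and LuM1 over NM11 was -3.96. *Ccl5* had -1.07 and 2.74, and LuM1 over NM11 was -3.80. The 2-fold call of *Ccl5* in LuM1 over Colon26 was lost without scaling, scaled to *Hprt*, after normexp correction and in the authors' processed values (highest log2 ratio -0.62), and that of *Gadd45b* in NM11 over Colon26 when scaled to *Hprt* (0.87), with no change of direction. With 1 array per line the differences were not tested.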

How the results depend on the processing

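With the 8 alternatives, the 5 members at least 2-fold higher than in Colon26 cells kept this place in each subline, and *Rel* joined them in LuM1 cells (6 in all) when significantly or any positive signals were accepted. Between the sublines the count of members at least 2-fold higher in LuM1 cells was 0, but 2 (*Bcl3* and *Nfkbiz*) without scaling, 2 after quantile normalization, 2 in the authors' processed values and 3 (with *Nfkbia*) when scaled to *Hprt*. Of the other counts of members none moved by over 1.5 times. The scalings shift all genes alike. For LuM1 over Colon26 the median log2 shift was 0.45 with the authors' processed values, 0.11 without scaling and 0.10 when scaled to *Hprt*. For LuM1 over NM11 it was 0.41, 0.18 and 0.59, and for NM11 over Colon26 scaling to *Hprt* gave -0.49. The share of all genes at least 2-fold higher moved with it, from 13.1% to 21.2% for LuM1 over Colon26 in the authors' values (lower, 6.09%) and from 8.34% to 5.06% for NM11 over Colon26 when scaled to *Hprt* (lower, 20.1%). For LuM1 over NM11 the share was 25.3% higher and 3.52% lower when scaled to *Hprt*, 19.3% and 4.43% in the authors' values, and 13.8% and 6.32% without scaling. After normexp correction 4.13% were lower for NM11 over Colon26 and 6.66% higher for LuM1 over NM11. Accepting signals significantly above background gave 1810 higher and 2188 lower for NM11 over Colon26 (1153 and 1092 otherwise), 2716 lower for LuM1 over Colon26 (1679) and 1843 lower for LuM1 over NM11 (1225), and accepting all signals gave counts within 1 of these. The direction of *Nfkb1*, *Nfkb2*, *Rel*, *Rela*, *Relb* and *Birc3* between the sublines turned under at least 1 alternative. The bounds of *Bcl3* and *Birc3* rest on the dim Colon26 signal. After normexp correction that of *Bcl3* was at least 153-fold for LuM1 and 80.9-fold for NM11 over Colon26, and that of *Birc3* at least 3.39-fold and 3.77-fold. Where significant signals were accepted, *Bcl3* had measured ratios of 1784-fold and 943-fold to a signal near background, and *Birc3* bounds of 38.9-fold and 38.1-fold. No paired analysis was possible because each line had 1 array, and no array could be left out.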
